A study of Rattus norvegicus with 18 samples.

Results

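The subunits of the mitochondrial respiratory chain and of the ATP synthase that are encoded in the cell nucleus were followed in cultured rat hepatocytes given EMD, which the study describes as a dual agonist of PPARα and PPARγ, the nuclear receptors that govern fatty acid use and storage. The rule uses gene symbols, and a measured value enters it only in the choice between probe sets of 1 gene. A gene was taken when its probe set carried 1 symbol beginning with Ndufa, Ndufb, Ndufc, Ndufs, Ndufv, Uqcr, Cox4 to Cox8 or Atp5, or was Sdha, Sdhb, Sdhc, Sdhd or Cyc1, and the Ndufaf assembly factors were left out. This gave 81 genes of the 14217 genes with a symbol of their own on the array, with 36 in complex I, 4 in complex II, 8 in complex III, 17 in complex IV and 16 in the ATP synthase group. A probe set is the group of short probes with which the array reads a transcript, and for the 8 members with more than 1 probe set the brightest one was used. The symbol rule also brought in genes that are no subunits: Atp5if1, an inhibitor protein of the ATP synthase, Cox7a2l, an assembly factor of supercomplexes, and the pseudogene Cox6c-ps1. Ndufa4, which is now placed in complex IV, and its paralogue Ndufa4l2 were kept under complex I by their symbols.

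Complexes I and II pass electrons from NADH and from succinate to ubiquinone, complex III passes them on to cytochrome c, and complex IV passes them to oxygen. Complexes I, III and IV pump protons across the inner membrane as they do so, and the ATP synthase lets these protons flow back to make ATP. Hepatocytes are rich in mitochondria and rely on this chain to take up the electrons that fatty acid oxidation releases. Several complex IV subunits exist in isoform pairs, of which one form is typical of liver and most other tissues and the other of heart and skeletal muscle.

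Primary hepatocytes from the liver of Wistar rats were left to attach for 24 h and then kept in medium with insulin and hydrocortisone, so that all groups, controls included, received both hormones. They were given 30 µM EMD, 100 µM EMD or the vehicle alone (0.1% DMSO) for 24 h or 72 h, and total RNA of 3 replicates for each of the 6 groups was read on 18 Affymetrix rat expression arrays. The labels number the EMD arrays as biological replicates and the DMSO arrays as replicates, and name no animal. The methods state that cells of each animal received every treatment, but the labels do not tie a number to an animal. A p-value here thus reflects the scatter of arrays and not of known animals. Values are log2 signals, on which 1 unit is a 2-fold difference, and a level can be compared between groups for 1 probe set but not between probe sets. A member was called when limma's moderated test across all 31042 probe sets gave an adjusted p (Benjamini-Hochberg) under 0.05. "Rose" and "fell" are used of called members only, and errors beside changes are standard errors. In bulk RNA such as this, fewer cells of a type and less RNA per cell cannot be told apart.

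The arrays were alike in their overall signal, with medians between 5.04 and 5.11 and a lowest correlation of 0.9612 between any pair. Of the 81 members, 70 had a mean at or above 9 and 6 a mean under 5. The 8 measured marker genes of hepatocytes were bright, with group means of 12.58 to 13.05 at 72 h and 12.86 to 13.04 at 24 h. At 72 h these markers averaged 12.65 with 30 µM EMD, against 13.05 with DMSO, and 5 of the 8 fell while 1 rose. With 100 µM EMD they averaged 12.58, and 4 fell. The 6 macrophage markers measured had a 72 h mean of 5.89 at 30 µM and 5.88 at 100 µM EMD, with DMSO arrays at 6.32, and 1 and 2 of them fell. Markers of stellate cells and fibroblasts (7 measured) averaged 4.29 and 4.42, against 4.6, and 3 and 1 fell. Adipocyte markers (6 measured) averaged 5.85 and 5.65, against 5.26, and 2 and 1 rose. Of these only Cidea was bright (mean 12.16), and the others had means of 3.847 to 4.987. Endothelial markers averaged 3.43 and 3.46, against 3.41, and cholangiocyte markers 5.47 at both doses, against 5.52. Of all probe sets, 7.88% rose and 9.22% fell with 30 µM at 72 h, and 7.42% and 9.68% with 100 µM, so counts of 1 or 2 in such short lists say little. The 3′ minus 5′ signal of the beta-actin control sets, which grows as RNA degrades, was 0.848 ± 0.041 with 30 µM EMD at 72 h, against 0.698 ± 0.054 with DMSO (SD, n = 3 each). The other 2 control sets did not follow, with 0.171 ± 0.038 against 0.168 ± 0.024 for Gapdh and 1.5 ± 0.14 against 1.57 ± 0.066 for hexokinase. The part of the markers or of RNA quality in the results below was not tested.

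More members were called at 72 h than at 24 h, and at 72 h more rose with 30 µM than with 100 µM, although neither difference between counts was tested. With 30 µM EMD for 72 h, 24 of 81 members (29.6%) rose and 3 (3.7%) fell, beside 7.88% and 9.22% of all probe sets. The median change of the members was 0.14 on the log2 scale, against 0.01 over all probe sets, and 63 of the 81 members lay above 0. With 100 µM EMD for 72 h, 13 members (16%) rose and none fell, beside 7.42% and 9.68% of all probe sets, with a median change of 0.09, against 0.02 over all probe sets. At an unadjusted p under 0.05, 34 members were higher and 5 lower with 30 µM, and 24 were higher and 5 lower with 100 µM. Counts with 100 µM also moved with the settings of the fit: with array weights 21 rose and 7 fell, and between 1 and 2 fell under 6 other settings, cyclic loess scaling among them. Because most members are bright, the same shares were taken over the 3064 probe sets with a mean at or above 9. There, 19.5% rose and 19.9% fell with 30 µM at 72 h, while 32.9% of the 70 bright members rose and 2.86% fell. With 100 µM, 19.5% of the bright probe sets rose and 18.1% fell, against 15.7% and 0% of the bright members, so the share of members that rose lay below this background and the share that fell was lower too. These shares are descriptions, since the members are not independent of each other.

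At 24 h few members were called. With 30 µM EMD, 3 rose (Ndufa3, Ndufc1 and Ndufb1) and 1 fell (Atp5if1). These are 3.7% and 1.23% of the members, beside 3.35% and 2.01% of all probe sets. The share that rose was close to that of all probe sets and is not a result about the members. With 100 µM, none rose and 1 fell (Atp5mk), beside 3.06% and 2.95%. Among probe sets with a mean at or above 9, 11.6% rose and 5.09% fell with 30 µM, against 4.29% and 1.43% of the bright members. With 100 µM these shares were 11% and 6.82%, against 0% and 1.43%. The shares of bright members thus lay below this background. At an unadjusted p under 0.05, 6 members were higher and 5 lower with 100 µM. The same DMSO arrays served both doses at each time, so the counts for the doses are not independent.

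The mean over all 81 members read 10.63, 10.71 and 10.67 on the arrays with 30 µM EMD at 72 h, against 10.48, 10.56 and 10.53 on the DMSO arrays. With 100 µM at 72 h it read 10.63, 10.62 and 10.63. All EMD arrays at 72 h lay above all DMSO arrays of that time, while the arrays at 24 h spanned 10.36 to 10.46 with the groups intermixed. The shift is small beside that of the fatty acid oxidation enzymes, a list of 15 genes whose mean was 12.36 with 30 µM at 72 h, against 10.54 with DMSO.

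**Figure D1:**
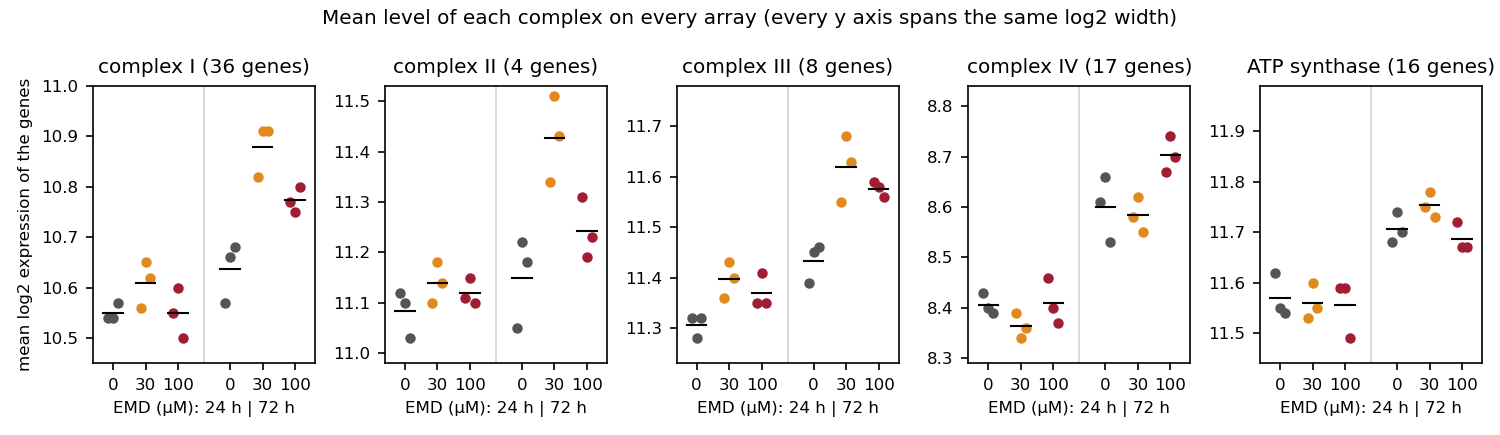
Mean log2 level over the genes of each complex (y axis) on every array, by EMD concentration in µM (x axis, 0 being DMSO) at 24 h and 72 h. Points are arrays and lines are group means, and the y axes have the same width but different positions. Complex I at 72 h spans 10.82 to 10.91 with 30 µM, against 10.57 to 10.68 with DMSO. Complex IV at 72 h spans 8.55 to 8.62 with 30 µM and 8.53 to 8.66 with DMSO, and includes the fall of Cox6a2 with 30 µM. Over its other genes the mean is higher on every 30 µM array than on any DMSO array of that time.

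By complex, the rises at 72 h lay mainly in complexes I, II and III. With 30 µM, 15 of 36 complex I members, 3 of 4 complex II members and 4 of 8 complex III members rose, and none of them fell. In complex IV none of 17 rose and 2 fell, and in the ATP synthase group 2 of 16 rose and 1 fell. All 6 members with a mean under 5 (Cox4i2, Cox6b2, Cox6c-ps1, Cox7a1, Cox7b2 and Cox8b) are in complex IV. Its counts, median and mean thus include genes near the floor, where a change is hard to see. The median changes were 0.20 in complex I, 0.37 in complex II, 0.19 in complex III, 0.09 in complex IV and 0.10 in the ATP synthase group. With 100 µM, 11 members rose in complex I, 2 in complex III and none elsewhere, and the medians were 0.12, 0.14, 0.08, 0.09 and -0.05 in the same order of complexes. No test compared one complex with another. The mean over the complex I genes read 10.82, 10.91 and 10.91 on the 30 µM arrays at 72 h, against 10.57, 10.66 and 10.68 on the DMSO arrays, and 10.77, 10.75 and 10.80 on the 100 µM arrays. Both EMD groups lay wholly above DMSO. Over the complex IV genes it read 8.58, 8.62 and 8.55 with 30 µM, against 8.61, 8.66 and 8.53 with DMSO, and these groups overlapped. With 100 µM it read 8.67, 8.74 and 8.70, wholly above DMSO. The 30 µM mean includes the fall of Cox6a2 described below, and 13 of the 17 members lay above 0. Over the complex IV genes other than Cox6a2, the mean was higher on every 30 µM array than on any DMSO array.

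**Figure D2:**
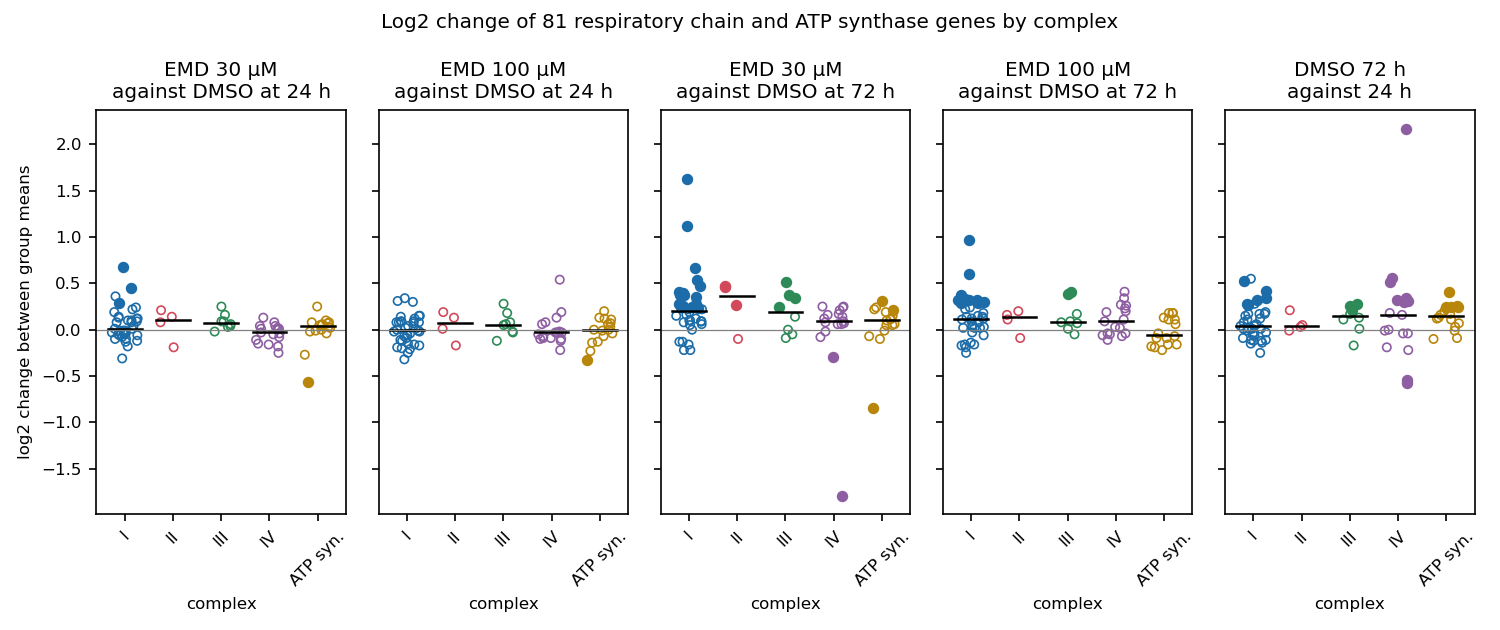
Log2 change (y axis) of each of the 81 members by complex (x axis) in 5 comparisons: 30 µM and 100 µM EMD against DMSO at 24 h and at 72 h, and DMSO at 72 h against 24 h. Filled points are called members, open points are not, and black lines are medians. With 30 µM at 72 h, 15 of 36 complex I members are filled above 0, and the lowest point is Cox6a2 at -1.79.

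Promoter sequence (250 bases before and 50 after the transcription start) was available for 72 of the 81 members, from RefSeq on the GRCr8 build, and was searched on both strands for 5 motifs. The element that PPARs bind, AGGTCA repeated in the same direction with 1 base between the copies, was found in 0 of 72 members and in 0.0538% of all 33469 promoters, and a looser form with AGGNCA copies in 0 of 72 and 0.415%. Where so few promoters hold a motif, 0 of 72 says little. Less exact repeats and sequence outside these bases were not searched. The motif TCAAGGTCA of the estrogen-related receptors was in 2 of 72 members (2.78%), against 0.433% of all promoters. The core motif GCATGCGC of the nuclear respiratory factor Nrf1 was in 7 of 72 (9.72%), against 2.47%, and CCGGAAG, bound by GABP and other ETS factors, was in 20 of 72 (27.8%), against 8.75%. The set of all promoters was not limited by gene type or to 1 per gene, whereas each of the 72 members gave 1. The shares may therefore compare unlike sets. Of the 23 members with a promoter that rose with 30 µM at 72 h, 2 held the estrogen-related receptor motif, 1 the Nrf1 core and 4 the ETS motif. The sites below are those of the only members with the estrogen-related receptor motif, both of which rose, and of 1 such member each for the other motifs. They run in the direction of the gene, and the capitals mark the motif, which is in each case on the opposite strand and so is printed as its reverse complement. The Sdhd site lies at chr8:59850592-59850616 (minus strand) and its motif begins 36 bases after the start, the Atp5mc3 site at chr3:79220703-79220731 (minus strand), 57 bases before the start, the Uqcrc1 site at chr8:118468174-118468201 (plus strand), 39 bases before the start, and the Ndufs8 site at chr1:210573694-210573720 (minus strand), 12 bases before the start. A match is a description of these letters and says nothing of binding.
Sdhd, estrogen-related receptor: ggccgtagggTGACCTTGAgccctc
Atp5mc3, estrogen-related receptor: tgttacaaagTGACCTTGAgcgtcttccc
Uqcrc1, Nrf1 core: actccaccctGCGCATGCgtagcgcggc
Ndufs8, ETS: taggctccgcCTTCCGGttgacccgca

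In complex I the largest change was that of Ndufa3, a small accessory subunit of the membrane arm. At 72 h it read 12.99, 12.92 and 13.02 with 30 µM EMD, against 11.26, 11.36 and 11.41 with DMSO. The groups stood far apart, and the change was 1.63 ± 0.11 (adjusted p = 3.2e-08), a 3.1-fold higher level. The 100 µM arrays read 12.24, 11.68 and 11.91, above every DMSO array and below every 30 µM array, with a change of 0.60 ± 0.11 (adjusted p = 0.0012). At 24 h it read 12.07, 12.03 and 12.29 with 30 µM, against 11.50, 11.35 and 11.51 with DMSO, a rise of 0.68 ± 0.11 (adjusted p = 0.0012). At 100 µM and 24 h the arrays read 11.76, 11.82 and 11.80, above the DMSO arrays but not called. Ndufa3 was also the only member whose response to 30 µM EMD differed between the times. Its change was larger at 72 h than at 24 h by 0.96 ± 0.16 (adjusted p = 0.0093), beside 0.412% of all probe sets with a higher response at 72 h and 0.528% with a lower one.

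Ndufc1, another small accessory subunit of the membrane arm, showed the same order of groups. It read 11.90, 12.02 and 12.05 with 30 µM at 72 h, against 11.15, 11.35 and 11.47 with DMSO, a rise of 0.67 ± 0.09 (adjusted p = 5.1e-05). With 100 µM at 72 h it read 11.74, 11.56 and 11.64, between these groups and apart from both, a rise of 0.32 ± 0.09 (adjusted p = 0.019). This last call was lost without DMSO replicate 1 (adjusted p = 0.11), 100 µM replicate 1 (0.063) or 100 µM replicate 3 (0.055), under cyclic loess (0.053) and in a fit on the compared arrays (0.12). At 24 h the 30 µM arrays read 11.53, 11.66 and 11.61, against 11.05, 11.22 and 11.19 with DMSO, a rise of 0.45 ± 0.09 (adjusted p = 0.0053).

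Ndufa4l2, a paralogue of Ndufa4 known as a hypoxia-inducible gene, had the second largest rise with the widest spread. It read 8.33, 8.27 and 8.91 with 30 µM at 72 h, against 7.29, 6.80 and 8.04 with DMSO, and 8.38, 8.29 and 8.38 with 100 µM. All EMD arrays lay above all DMSO arrays, of which replicate 3 came close. The change was 1.12 ± 0.29 with 30 µM (adjusted p = 0.012), and this call was lost without DMSO replicate 2 (0.84, adjusted p = 0.078) or 30 µM replicate 3 (0.92, adjusted p = 0.073). With 100 µM it was 0.97 ± 0.29 (adjusted p = 0.029), a call lost on leaving out any of 5 of the 6 arrays, with adjusted p up to 0.16.

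The subunits that carry electrons from NADH to ubiquinone rose by smaller steps. Ndufs1, the largest iron-sulfur subunit, read 9.90, 10.06 and 9.97 with 30 µM at 72 h, against 9.45, 9.68 and 9.60 with DMSO, a rise of 0.40 ± 0.08 (adjusted p = 0.0023). At the higher dose the rise was 0.33 ± 0.08 (adjusted p = 0.0096), and this call was lost without DMSO replicate 1 (adjusted p = 0.056). Ndufs7, which holds the last iron-sulfur cluster before ubiquinone, read 10.85, 10.98 and 10.96 with 30 µM at 72 h, against 10.40, 10.62 and 10.55 with DMSO, and no array of one group reached the other. It rose by 0.41 ± 0.09 with 30 µM (adjusted p = 0.0051) and by 0.37 ± 0.09 with 100 µM (adjusted p = 0.0094), and the second call was lost without DMSO replicate 1 (adjusted p = 0.051). Ndufab1, which carries the growing acyl chain in mitochondrial fatty acid synthesis besides its place in complex I, read 12.10, 12.15 and 12.08 with 30 µM at 72 h, against 11.55, 11.61 and 11.56 with DMSO. Its arrays were tight in both groups, and it rose by 0.54 ± 0.07 (adjusted p = 5e-05) and, with 100 µM, by 0.30 ± 0.07 (adjusted p = 0.007).

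Ndufv3, an accessory subunit beside the flavin-binding site, read 10.59, 10.93 and 10.86 with 30 µM at 72 h, against 10.03, 10.51 and 10.42 with DMSO. The groups did not overlap, with a rise of 0.47 ± 0.15 (adjusted p = 0.045), and leaving out DMSO replicate 1 or 3 or 30 µM replicate 2 or 3 ended the call, with adjusted p between 0.055 and 0.22, as did equal array medians (0.055) and a fit on the compared arrays (0.073). Its second, dimmer probe set rose with both doses, by 0.52 ± 0.16 with 30 µM (adjusted p = 0.032) and by 0.59 ± 0.16 with 100 µM (adjusted p = 0.015). The other complex I members that rose with 30 µM at 72 h were Ndufa4, Ndufa7, Ndufa9, Ndufb6, Ndufb11, Ndufs3, Ndufs8 and Ndufv1, with changes of 0.23 to 0.37. Ndufv1 binds NADH and the flavin, and Ndufs8 carries iron-sulfur clusters on the way to ubiquinone. With 100 µM, Ndufa7 and Ndufb11 also rose, and Ndufb2, Ndufb8 and Ndufa6 rose at this dose and were not called with 30 µM. Ndufa6, an accessory subunit near the ubiquinone site, read 10.87, 11.22 and 11.17 with 100 µM, against 10.56, 10.89 and 10.83 with DMSO. The lowest EMD array lay below the highest DMSO array, with a rise of 0.32 ± 0.10 (adjusted p = 0.04) that was lost without DMSO replicate 1 (0.19) or 100 µM replicate 2 (0.17) or 3 (0.15), with equal array medians (0.053) and in a fit on the compared arrays (0.19).

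The part of complex I that holds the ubiquinone site (the Q module, 7 genes measured) had 5 members that rose with 30 µM at 72 h and a median change of 0.35, and 3 that rose with 100 µM and a median of 0.14. The part that takes electrons from NADH (the N module, 8 genes) had 3 members that rose and a median of 0.13 with 30 µM, and 1 and 0.06 with 100 µM. Of the other 21 members, which lie mostly in the membrane arm, 7 rose at either dose, with medians of 0.16 and 0.15. None of the 36 members fell at 72 h, and the lowest changes were -0.22 with 30 µM and -0.25 with 100 µM. At 24 h, Ndufb1 of the membrane arm read 10.90, 11.06 and 11.02 with 30 µM, against 10.77, 10.78 and 10.58 with DMSO, a rise of 0.29 ± 0.08 (adjusted p = 0.036) that was lost without 30 µM replicate 2 (0.16) or 3 (0.13) or DMSO replicate 3 (0.16).

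**Figure D3:**
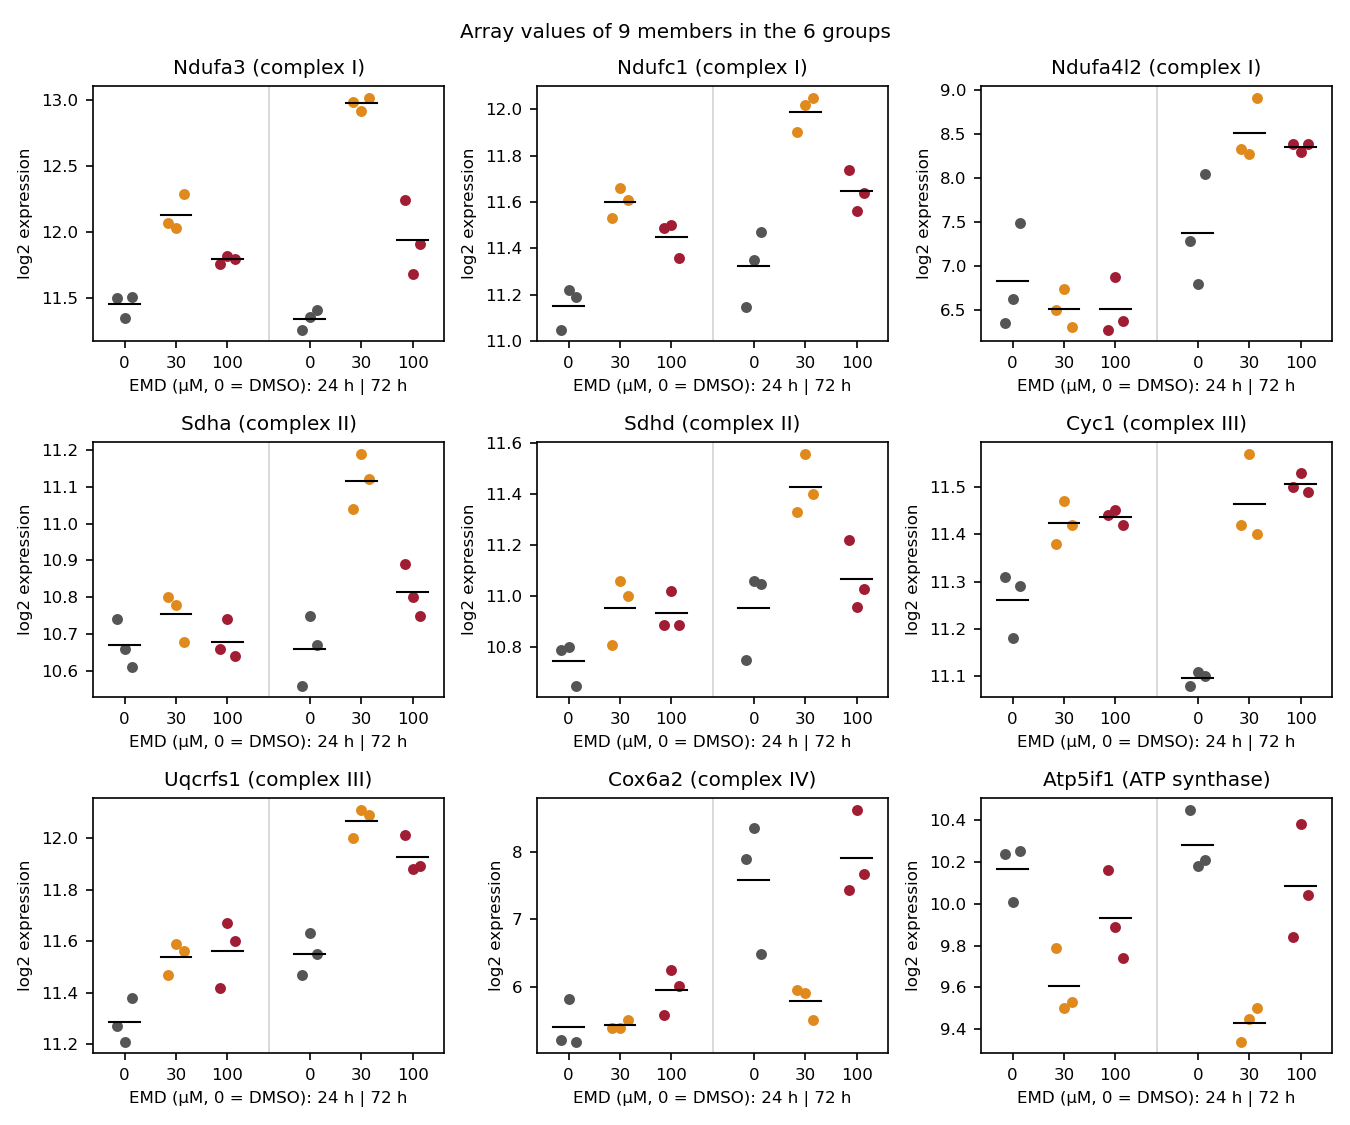
Log2 level (y axis) of 9 members on every array, by EMD concentration in µM (x axis, 0 being DMSO) at 24 h and 72 h. Points are arrays and lines are group means. Ndufa3, Ndufc1, Sdha and Sdhd are highest with 30 µM at 72 h, while Cox6a2 spans 5.50 to 5.95 and Atp5if1 9.34 to 9.50 there, below all DMSO arrays of that time.

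Complex II, succinate dehydrogenase, is also an enzyme of the tricarboxylic acid cycle. Sdha, its flavin-binding subunit, read 11.04, 11.19 and 11.12 with 30 µM at 72 h, against 10.56, 10.75 and 10.67 with DMSO, and the groups stood apart. The rise was 0.46 ± 0.08 (adjusted p = 0.00044). With 100 µM at 72 h Sdha read 10.89, 10.80 and 10.75, with its lowest array level with the highest DMSO array, and its change of 0.16 ± 0.08 was not called (adjusted p = 0.2). Sdhd, one of the membrane anchors and the holder of the estrogen-related receptor motif printed above, read 11.33, 11.56 and 11.40 with 30 µM at 72 h, against 10.75, 11.06 and 11.05 with DMSO. It rose by 0.47 ± 0.10 (adjusted p = 0.0039), and its second probe set rose by 0.53 ± 0.11 (adjusted p = 0.0031). With 100 µM the arrays read 11.22, 10.96 and 11.03 and overlapped with DMSO, with a change of 0.11 ± 0.10 (adjusted p = 0.53). Sdhc, the other anchor, read 11.46, 11.57 and 11.55 with 30 µM, against 11.15, 11.30 and 11.32 with DMSO, a rise of 0.27 ± 0.08 (adjusted p = 0.019). Its call was lost without DMSO replicate 1 (0.1) or 30 µM replicate 2 (0.075) or 3 (0.066). The 100 µM arrays read 11.52, 11.36 and 11.50, above all DMSO arrays, with a change of 0.20 ± 0.08 (adjusted p = 0.08).

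Sdhb, the iron-sulfur subunit of the same enzyme, did not share this pattern. At 72 h it read 11.54, 11.73 and 11.64 with 30 µM, against 11.73, 11.76 and 11.70 with DMSO, a change of -0.10 ± 0.07 (adjusted p = 0.39). At the higher dose it read 11.63, 11.66 and 11.63, and the change was -0.09 ± 0.07 (adjusted p = 0.42). At 24 h it was -0.19 with 30 µM (adjusted p = 0.15) and -0.17 with 100 µM (adjusted p = 0.18), so the value lay below 0 in all 4 comparisons and passed the test in none. The difference between Sdhb and the other subunits was not tested. At 24 h the other 3 subunits were not called at either dose.

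In complex III, Uqcrfs1, the Rieske iron-sulfur protein, rose most. It read 12.00, 12.11 and 12.09 with 30 µM at 72 h, against 11.47, 11.63 and 11.55 with DMSO, and 12.01, 11.88 and 11.89 with 100 µM. Both EMD groups lay wholly above DMSO, by 0.51 ± 0.08 with 30 µM (adjusted p = 3e-04) and by 0.38 ± 0.08 with 100 µM (adjusted p = 0.0042). Cyc1, cytochrome c1, which hands electrons to cytochrome c, rose at both doses at 72 h. It read 11.42, 11.57 and 11.40 with 30 µM, against 11.08, 11.11 and 11.10 with DMSO, and 11.50, 11.53 and 11.49 with 100 µM. The rises were 0.37 ± 0.07 (adjusted p = 0.0011) and 0.41 ± 0.07 (adjusted p = 0.00047). At 24 h its changes were 0.16 with 30 µM (adjusted p = 0.25) and 0.18 with 100 µM (adjusted p = 0.18). Uqcrc2, a core protein of the complex, read 11.28, 11.45 and 11.44 with 30 µM at 72 h, against 11, 11.08 and 11.05 with DMSO, a rise of 0.34 ± 0.08 (adjusted p = 0.0059). Its dimmer second probe set did not follow, with a change of -0.08 ± 0.10 (adjusted p = 0.69). The other core protein, Uqcrc1, rose as well with 30 µM, and the small subunits Uqcr10, Uqcr11, Uqcrh and Uqcrq were not called with EMD.

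In complex IV no member rose with EMD in any of the 4 comparisons with DMSO. The largest change of all 81 members was a fall of Cox6a2, the heart and muscle isoform of subunit 6a, with 30 µM at 72 h. It read 5.95, 5.90 and 5.50, against 7.90, 8.35 and 6.48 with DMSO, and the groups did not overlap although DMSO replicate 3 was far below the other 2. The change was -1.79 ± 0.37 (adjusted p = 0.0026), to 0.29 of the DMSO level, and it passed the test without any 1 of the 6 arrays. With 100 µM it read 7.43, 8.63 and 7.68, within the DMSO range but for the highest array, with a change of 0.34 ± 0.37 (adjusted p = 0.62) that was below 0 without 100 µM replicate 2 (-0.02) or DMSO replicate 3 (-0.21). At 24 h all arrays were low, at 5.38, 5.38 and 5.51 with 30 µM, against 5.21, 5.81 and 5.18 with DMSO, and at 5.58, 6.24 and 6.01 with 100 µM. In DMSO cultures Cox6a2 thus rose over time, by 2.17 ± 0.37 (adjusted p = 0.00068), a 4.51-fold difference of 72 h over 24 h, while with 30 µM EMD its arrays at 72 h reached little above those at 24 h. The difference of the 30 µM response between the times was -1.81 ± 0.53 and did not pass the test (adjusted p = 0.13). Of 8 muscle markers, whose mean at 72 h was 4.96 with 30 µM, against 5.16 with DMSO, none was called at 72 h with EMD. Of these, Ckm, Mb, Myh7 and Tnnt3 had group means of 3.27 to 3.84, near the lowest values of the array, and Acta1, skeletal muscle actin, averaged 10.31 with 30 µM at 72 h, against 11.54 with DMSO, with overlapping arrays (-1.23 ± 0.70, adjusted p = 0.29). Their part in the fall of Cox6a2 was not tested.

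The liver isoform Cox6a1 changed by -0.02 with 30 µM (0.04 under cyclic loess) and by -0.04 with 100 µM at 72 h, and neither was called. Cox7a2l fell with 30 µM at 72 h. It read 10.93, 10.90 and 10.89, against 11.31, 11.16 and 11.14 with DMSO, a change of -0.30 ± 0.08 (adjusted p = 0.018) with no overlap. Leaving out DMSO replicate 1 (0.095), 30 µM replicate 2 (0.056) or 30 µM replicate 3 (0.059) ended the call, as did cyclic loess (-0.24, adjusted p = 0.067) and a fit on the compared arrays (0.059). With 100 µM it read 11.28, 11.20 and 11.21, among the DMSO arrays, and its change was 0.03 (adjusted p = 0.88, -0.01 under cyclic loess).

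The other isoform pairs of complex IV did not pass the test at 72 h with either dose, though some did under other settings. Cox4i1, the common form of subunit 4, changed by 0.12 ± 0.07 with 30 µM (adjusted p = 0.32) and by 0.19 ± 0.07 with 100 µM (adjusted p = 0.078), and passed at the higher dose with array weights (0.013) or without probe sets under a mean of 5 (0.049) or 9 (0.038). Its partner Cox4i2, typical of lung and smooth muscle, was near the floor with array values of 3.72 to 4.67 and changed by 0.14 and 0.41 ± 0.15 (adjusted p = 0.61 and 0.072), the second of which passed with array weights (0.023), with the replicate number as a block (0.03) and without DMSO replicate 3 (0.03). Cox5a changed by 0.17 and 0.27, Cox5b by 0.06 and 0.11, Cox6b1 by 0.08 and -0.11, Cox6c by 0.09 and -0.04 and Cox8a by 0.21 and -0.07, each with 30 µM first. The Cox5a values are those of a dimmer probe set (mean 7.643), since the brighter one (12.02) carries several symbols and was left out. The only probe set of Cox7a2, the partner of Cox7a1, was left out for the same reason. The dim forms Cox6b2, Cox7a1, Cox7b2, Cox8b and the pseudogene Cox6c-ps1 had means of 3.149 to 4.84 and changes of -0.08 to 0.26, and among them Cox8b rose with array weights (adjusted p = 0.049 with 30 µM and 0.012 with 100 µM). Ndufa4, counted by its symbol in complex I, rose by 0.23 ± 0.07 with 30 µM (adjusted p = 0.045), a call lost on leaving out any of 5 of the 6 arrays (adjusted p up to 0.16) or with the replicate number as a block (0.055), and changed by 0.02 with 100 µM (-0.04 under cyclic loess). The 2 subunits of complex IV that the mitochondrial genome encodes and the array reads, COX1 and COX2, are no members and were not called: COX1 changed by 0.05 and COX2 by -0.10 with 30 µM at 72 h.

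In the ATP synthase group the largest change was a fall of Atp5if1, the inhibitor protein that blocks the enzyme when it would run backwards. At 72 h it read 9.34, 9.45 and 9.50 with 30 µM, against 10.45, 10.18 and 10.21 with DMSO. No array of one group came near the other, and the change was -0.85 ± 0.14 (adjusted p = 3e-04), to 0.555 of the DMSO level. The 100 µM arrays read 9.84, 10.38 and 10.04 and overlapped with DMSO, with a change of -0.19 ± 0.14 (adjusted p = 0.4). At 24 h it read 9.79, 9.50 and 9.53 with 30 µM, against 10.24, 10.01 and 10.25 with DMSO, a fall of 0.56 on the log2 scale (SE 0.14, adjusted p = 0.022). That call was lost without 30 µM replicate 2 (0.11) or 3 (0.092), without DMSO replicate 1 (0.079) or 3 (0.086), and with the mean of its 3 probe sets (-0.30, adjusted p = 0.15). The other 2 probe sets of Atp5if1 are dim, with means of 4.691 and 3.829, and changed by -0.16 and -0.09 with 30 µM at 72 h, neither called.

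The subunits of the enzyme itself moved little. Atp5mc3, a gene for subunit c of the rotating ring and the other holder of the estrogen-related receptor motif, read 13.12, 13.12 and 13.07 with 30 µM at 72 h, against 12.76, 12.87 and 12.75 with DMSO. The groups stood apart by 0.31 ± 0.07 (adjusted p = 0.0058), and with 100 µM the change was 0.13 (adjusted p = 0.26). Atp5pb of the stator stalk also rose with 30 µM. Atp5mk, a small membrane subunit, read 11.56, 11.47 and 11.22 with 100 µM at 24 h, against 11.86, 11.66 and 11.74 with DMSO, a fall of 0.33 on the log2 scale (SE 0.09, adjusted p = 0.043). It was lost without 100 µM replicate 2 (0.08) or 3 (0.22), without DMSO replicate 1 (0.17) or 3 (0.086), and under cyclic loess scaling (0.083). The catalytic subunits Atp5f1a and Atp5f1b, and Atp5f1c, Atp5f1d and Atp5f1e with them, were called in none of the 4 comparisons with DMSO. Over all complexes, 49 of the 81 members were called in none of these 4.

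Of the 24 members that rose with 30 µM at 72 h, 10 also rose with 100 µM, which is 10 of the 13 that rose there: Ndufa3, Ndufa4l2, Ndufa7, Ndufab1, Ndufb11, Ndufc1, Ndufs1, Ndufs7, Cyc1 and Uqcrfs1. The direct comparison of the doses shows which of these differences passed a test. At 72 h, 3 members were higher with 100 µM than with 30 µM (3.7%, beside 1.25% of all probe sets) and 4 were lower (4.94%, beside 1.85%), with a median of -0.06, against 0.01 over all probe sets. Among probe sets with a mean at or above 9, 6.59% were higher and 5.19% lower, against 2.86% and 5.71% of the 70 bright members. Beside these bright probe sets the share of higher members was smaller and that of lower members was close. The count of lower members was 17 with array weights, 13 under cyclic loess (median -0.15) and 13 without probe sets under a mean of 9, and at an unadjusted p under 0.05, 23 were lower and 4 higher. Cox6a2 was higher by 2.13 ± 0.37 (adjusted p = 0.0068), a call lost without 100 µM replicate 2 (1.77, adjusted p = 0.055). Atp5if1 was higher by 0.66 ± 0.14 (adjusted p = 0.017) and Cox7a2l by 0.32 ± 0.08 (adjusted p = 0.042). Ndufa3 was lower by 1.03 (-1.03 ± 0.11, adjusted p = 0.00053) and kept this call without any 1 array. Ndufc1 (-0.35 ± 0.09, adjusted p = 0.048), Atp5f1c (-0.34 ± 0.09, adjusted p = 0.043) and Sdha (-0.30 ± 0.08, adjusted p = 0.043) were lower too. Without 1 array, the calls of Atp5if1, Ndufc1, Atp5f1c, Sdha and Cox7a2l were lost for 4 to 6 of the 6 arrays, with adjusted p up to 0.23, and all 5 were lost in a fit on the compared arrays (0.09 to 0.19). At 24 h no member and no probe set differed between the doses (0% and 0%) by limma's adjusted test, and 3 members had an unadjusted p under 0.05.

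The members also moved with time in culture without EMD. In DMSO cultures, 21 members (25.9%) were higher at 72 h than at 24 h, beside 11% of all probe sets, and 2 (2.47%) were lower, beside 10.7%, with a median of 0.11, against -0.05 over all probe sets. Among probe sets with a mean at or above 9, 19.7% rose and 13.4% fell, against 27.1% and 0% of the 70 bright members. Here complex IV had 7 of 17 that rose and the ATP synthase group 5 of 16, beside 6 of 36 in complex I, 3 of 8 in complex III and none in complex II. Cox7b, a small subunit of complex IV, read 12.32, 12.41 and 12.46 at 72 h, against 11.84, 11.83 and 11.84 at 24 h, and rose by 0.56 ± 0.07 (adjusted p = 3.7e-05). Cox6a1, the liver form, read 12.05, 11.99 and 11.98, against 11.52, 11.45 and 11.53, a rise of 0.51 ± 0.07 (adjusted p = 7.5e-05). In both the times stood wholly apart. Ndufs3, a core subunit of the Q module, rose by 0.53 ± 0.11 (adjusted p = 0.0022). The dim isoforms Cox4i2 (-0.57 ± 0.15, adjusted p = 0.013) and Cox8b (-0.54 ± 0.09, adjusted p = 0.00057) were the 2 that fell, at levels of 3.41 to 4.67, and the call of Cox4i2 was lost without DMSO replicate 1 at 24 h (0.06), or replicate 1 (0.052) or 2 (0.051) at 72 h. Macrophage markers fell over the same time, 4 of the 6 measured, with a mean of 6.32 at 72 h, against 6.98 at 24 h, and the beta-actin 3′ minus 5′ signal was 0.698 ± 0.054 at 72 h, against 1.31 ± 0.039 at 24 h (SD, n = 3 each). Their part in the rise over time was not tested. Of the 24 members that rose with 30 µM EMD at 72 h, 5 also rose over time in DMSO (Atp5mc3, Atp5pb, Ndufs3, Ndufs8 and Uqcrfs1). These comparisons share the DMSO arrays of 72 h.

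Apart from Ndufa3, no member passed the test of a different response at 72 h than at 24 h to 30 µM EMD, and none did for 100 µM (beside 0.245% of all probe sets higher and 0.448% lower). So the larger count at 72 h is not a tested difference in time for the single members. At an unadjusted p under 0.05, 14 members had a higher and 1 a lower response at 72 h with 30 µM, and 8 a higher and 1 a lower one with 100 µM. The median of this difference was 0.13 with 30 µM, against 0.03 over all probe sets.

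Genes that act around the chain were taken from lists of known members, and their counts at 72 h stand beside 7.88% of all probe sets higher and 9.22% lower with 30 µM, and 7.42% and 9.68% with 100 µM. Among 12 regulators of mitochondrial biogenesis, none was called at 24 h. With 30 µM at 72 h, 4 rose and 1 fell. Tfam, which packages and transcribes mitochondrial DNA, averaged 9.56 with 30 µM, against 8.53 with DMSO, a rise of 1.03 ± 0.13 (adjusted p = 1.9e-05). Tfb2m, a mitochondrial transcription factor, rose by 0.74 ± 0.16 (adjusted p = 0.0037) and Ppargc1b, a coactivator, by 0.74 ± 0.19 (adjusted p = 0.012). With 100 µM, 4 rose and 2 fell. Tfam rose by 0.89 ± 0.13 (adjusted p = 1e-04) and Ppargc1b by 0.86 ± 0.19 (adjusted p = 0.0045), while Ppargc1a, the related coactivator, fell by 0.83 on the log2 scale (SE 0.22, adjusted p = 0.014). Ppargc1a was dim, with a mean of 4.63 with 100 µM, against 5.47 with DMSO, and these groups overlapped. Esrra, the estrogen-related receptor whose motif was searched above, rose with both doses. It averaged 7.46 with 30 µM, against 7.15 with DMSO (0.32 ± 0.08, adjusted p = 0.011), and 7.85 with 100 µM (0.70 ± 0.08, adjusted p = 1.2e-05). Its level with 100 µM was thus above that with 30 µM, by 0.39 ± 0.08 (adjusted p = 0.017). A link between Esrra and the motif holders Sdhd and Atp5mc3 was not tested. Nrf1, and Gabpa and Gabpb1 of GABP, whose motifs were searched in the same way, were not called with EMD at 72 h. With 30 µM first, Nrf1 changed by -0.13 and -0.15, Gabpa by 0.23 and 0.04, and Gabpb1 by -0.02 and -0.01. In DMSO cultures Esrra was lower at 72 h than at 24 h, by -0.75 ± 0.08 (adjusted p = 1.1e-05).

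Of 43 assembly factors of the chain, 9 rose and 1 fell with 30 µM at 72 h (median 0.12) and 14 rose and 1 fell with 100 µM (median 0.21). The most changed were Sdhaf3, which serves complex II (0.81 ± 0.22 at either dose), Lrpprc, which stabilises mitochondrial mRNAs (0.65 ± 0.10 with 30 µM and 0.72 ± 0.10 with 100 µM), Foxred1 of complex I assembly with 30 µM (0.60 ± 0.10) and Sdhaf1 of complex II assembly with 100 µM (0.76 ± 0.14). Of 73 proteins of the mitochondrial ribosome, 10 rose and 4 fell with 30 µM at 72 h (median 0.09), and 12 rose and 1 fell with 100 µM (median 0.21). The share that rose with 30 µM, 13.7%, lies between that of all probe sets and the 19.5% of bright ones, so it is not a result about this list. With 100 µM, 12 of 73 likewise lies between 7.42% of all probe sets and 19.5% of bright ones, and is no such result either. For assembly factors the larger count lay with 100 µM (14 against 9), and for the ribosome the counts were close (12 against 10). Among the 81 members the larger count lay with 30 µM, and this difference was not tested. Mrps18a had the largest change (0.85 ± 0.23 with 30 µM and 1.50 ± 0.23 with 100 µM).

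Of 17 genes that feed electrons to ubiquinone by other routes or make ubiquinone, 5 rose and 1 fell at 24 h with either dose, 9 rose and 2 fell with 30 µM at 72 h, and 11 rose and 1 fell with 100 µM at 72 h. Gpd2, the mitochondrial glycerol phosphate dehydrogenase, averaged 8.02 with 30 µM at 72 h, against 5.07 with DMSO, a rise of 2.95 ± 0.24 (adjusted p = 2.4e-07). Etfdh, which passes electrons from fatty acid oxidation to ubiquinone, rose by 1.39 ± 0.12 with 30 µM at 24 h (adjusted p = 8.7e-07) and by 1.19 ± 0.12 at 72 h (adjusted p = 2.7e-06). Sqor, sulfide quinone oxidoreductase, fell with 30 µM at 72 h (-1.19 ± 0.18, adjusted p = 0.00012). Of 12 genes of the tricarboxylic acid cycle other than succinate dehydrogenase, 6 rose and 1 fell with 30 µM at 72 h. Suclg2, of succinyl-CoA ligase, whose product feeds complex II, rose by 0.94 ± 0.09 (adjusted p = 1.8e-06), and Idh2 fell (-0.80 ± 0.22, adjusted p = 0.017). Of 15 genes of mitochondrial fatty acid oxidation, 14 rose at 24 h with either dose, with medians of 1.96 with 30 µM and 1.98 with 100 µM, when 3 and 0 of the 81 members rose.

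**Figure D4:**
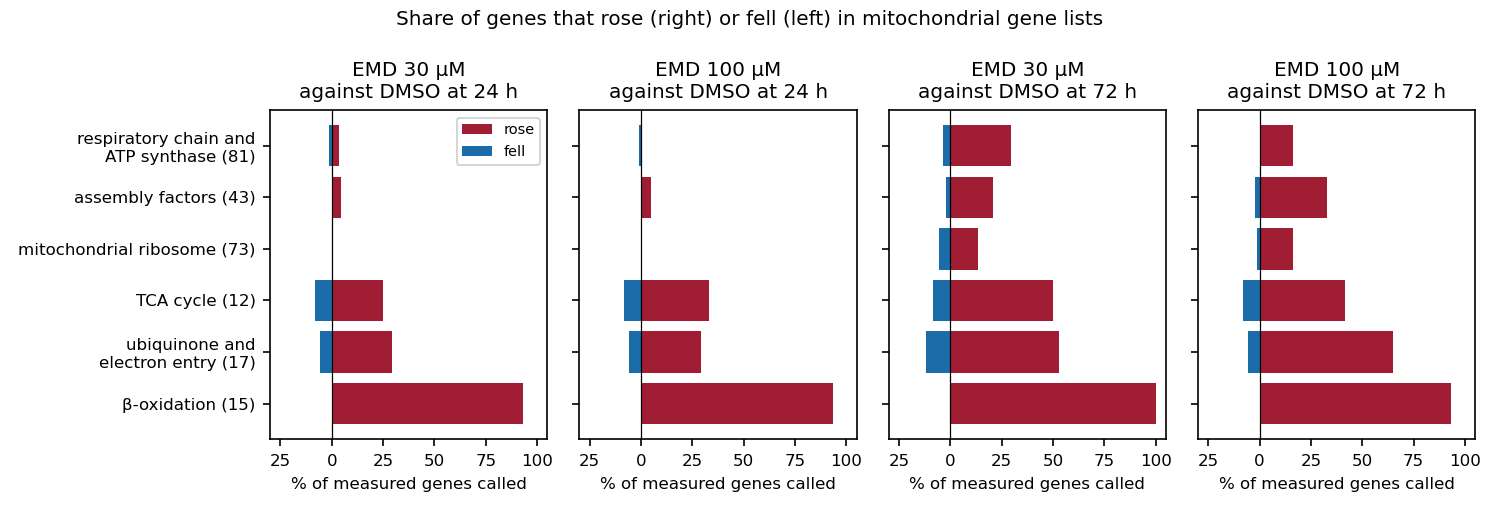
Share of genes that rose (bars to the right of 0) or fell (bars to the left), in percent (x axis), for the 81 members and 5 lists of mitochondrial genes (y axis), in the 4 comparisons of EMD with DMSO. Among the members 29.6% rose with 30 µM and 16% with 100 µM at 72 h, and 3.7% and 0% at 24 h.

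Leaving out single arrays moved the counts at 72 h. With 30 µM, between 13 and 21 members rose when 1 array was left out, with 13 without DMSO replicate 1 and 15 without 30 µM replicate 2. With 100 µM, between 5 and 14 rose, with 5 without DMSO replicate 1 and 6 without 100 µM replicate 3. In DMSO over time, 13 rose without DMSO replicate 2 at 72 h. The median change of the members stayed between 0.12 and 0.16 with 30 µM and between 0.07 and 0.12 with 100 µM.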

How the data were processed

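The 18 arrays were deposited as 1 table of log2 expression values that the authors made from their scans with the RMA algorithm (background correction, quantile normalization and summary per probe set, version not stated). Of 31099 probe sets, 57 controls were left out. Probe sets were named from GEO's platform annotation: 20826 had 1 symbol, 436 several and 9780 none, and 7 with several symbols that include a gene of the chain were not used. These 7 read Atp5mc1, Atp5mc2, Cox7a2, Uqcrb, Ndufs5, Ndufa10 and, as a brighter probe set than the one used, Cox5a. One model with 6 group means was fitted to all 31042 probe sets (limma 3.58.1, R 4.3.3, lmFit and eBayes), with 9 contrasts, each adjusted by Benjamini-Hochberg, two-sided, at 0.05. The members and gene lists were chosen with earlier results of these data known. Members were named with values by a fixed rule: in each comparison of EMD with DMSO the 8 largest called rises and falls, in the others the 4 largest, always the complex II subunits, Cyc1 and the isoform pairs, with arrays for the 3 most changed of each complex. Array values of other named members (Ndufab1, Ndufs1, Ndufs7, Ndufv3, Ndufa6, Ndufb1, Cox7b, Cox6a1) were added after they were seen. So were the values of Esrra, Nrf1, Gabpa and Gabpb1. Alternatives were another scaling (cyclic loess, equal medians), a fit on the compared arrays, trend and robust moderation, array weights, leaving out dim probe sets, the mean over a gene's probe sets, a replicate block and leaving out each array. On data simulated for 30 µM against DMSO at 72 h with 31042 probe sets, the test recovered 0% of changes of 0.25, 46% of 0.5, 90% of 1 and 100% of 2 (log2, 50 changed probe sets each), with 4 false calls. The simulation changed few probe sets, while 5309 were called in the data, so its adjusted test was stricter. It also drew from all probe sets, whose median standard error was 0.1158, against 0.08168 for the members. Its shares therefore do not measure what could be called among the members. Microarray signals carry no read depth, and the 3 arrays per group limit the precision.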

Additional observations from a re-analysis of the deposited data

Results flagged for a closer look

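Ndufa3 was picked out because its response to 30 µM EMD differed between the times, by an interaction term in limma. The response at 72 h exceeded that at 24 h by 0.96 on the log2 scale (SE 0.16, adjusted p = 0.0093), and without any 1 of the 12 arrays of this contrast the adjusted p stayed between 0.01 and 0.03.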

How the results depend on the processing

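No called result changed sign under any alternative. The median of -0.01 with 100 µM at 24 h was 0.02 under cyclic loess and without DMSO replicate 1 or 100 µM replicate 3. The values below are counts of the 81 members unless said otherwise, and the cause of a change was not tested. With array weights, 5 rose with 30 µM and 3 with 100 µM at 24 h, 21 rose and 7 fell with 100 µM at 72 h, 17 were lower with 100 µM than with 30 µM at 72 h, and the response at 72 h was higher than at 24 h for 2 and lower for 1 with 30 µM and higher for 2 with 100 µM. Without probe sets under a mean of 5, 5 rose with 30 µM and 2 with 100 µM at 24 h, 1 fell with 100 µM at 72 h and 1 fell over time in DMSO. Without those under a mean of 9, an alternative chosen after seeing the data, 7 rose and 2 fell with 30 µM and 4 rose with 100 µM at 24 h, 2 fell with 100 µM at 72 h, 13 were lower with 100 µM than with 30 µM at 72 h and 1 fell over time in DMSO. Under cyclic loess, 0 fell with 100 µM at 24 h, 2 fell with 100 µM at 72 h, 13 were lower with 100 µM than with 30 µM at 72 h, and the medians were 0.20 with 30 µM at 72 h, -0.15 between the doses at 72 h and 0.01 for the 100 µM response over time. With equal medians, 2 were lower with 100 µM than with 30 µM at 72 h. In fits on only the arrays compared, with fewer arrays to estimate the spread, 0 fell with 100 µM at 24 h, 15 rose with 30 µM and 4 with 100 µM at 72 h, 1 was higher and 1 lower between the doses at 72 h, and 6 rose over time in DMSO. There 15 of 115 named values lost their call, against 4 under cyclic loess and 5 with equal medians. With trend and robust moderation, 1 rose with 100 µM at 24 h and 1 fell at 72 h. With the mean over all probe sets of a gene, 0 fell with 30 µM at 24 h and 1 fell with 100 µM at 72 h.

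Leaving out 1 array gave 0 to 1 fall with 30 µM at 24 h, 0 to 2 rises and 0 to 1 fall with 100 µM at 24 h, 13 to 21 rises with 30 µM at 72 h, and 5 to 14 rises and 0 to 1 fall with 100 µM at 72 h. It gave 0 to 3 higher and 1 to 8 lower with 100 µM than with 30 µM at 72 h, 13 to 18 rises and 1 to 2 falls over time in DMSO, and a response over time that was higher for 1 to 2 and lower for 0 to 1 with 30 µM and higher for 0 to 1 with 100 µM. The dose counts were lowest without 100 µM replicate 2 for higher members (0), and the count of lower members was 8 without 100 µM replicate 1 and 1 without each of the other 5.

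The replicate numbers were not taken as pairing, since the labels do not tie them to animals, although the methods state that the cells of each animal received every treatment. Deviations of samples with the same number correlated with a median of 0.37 (0.01 to 0.63, 16 of 18 pairs above 0.1), against -0.22 (-0.47 to 0.25) for different numbers, which hints at pairing. With the replicate block, 1 member fell with 100 µM at 72 h, and the 30 µM response was higher at 72 h for 2 and lower for 1. Of 115 named values, 113 kept their call, Ndufa4 with 30 µM at 72 h lost it (adjusted p = 0.055) and Cox4i2 with 100 µM at 72 h gained it (adjusted p = 0.03). Members that were not called may still have changed, since several uncalled changes given above are well beyond their standard errors.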
